A study of Homo sapiens with 4 samples.

Results

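The BCL2 family genes are the genes for the proteins that hold or open the outer mitochondrial membrane. The 10 genes *BCL2*, *BCL2L1*, *MCL1*, *BCL2L11*, *BAX*, *BAK1*, *BAD*, *BID*, *BBC3* and *PMAIP1* were looked up by gene name in a table of RNA synthesis with 10147 genes, and 7 of them were listed. *MCL1*, *BID* and *BBC3* were not listed and were not analysed here. Synthesis was measured by transient transcriptome sequencing (TT-seq), in which RNA made during a short pulse of the uridine analogue 4sU is isolated and sequenced. All cells were genome edited K562, a human chronic myelogenous leukemia line, with an N-terminal dTAG on the elongation factor IWS1, which the ligand dTAG7 marks for degradation. The 2 control libraries came from cells given the DMSO solvent, and the 2 dIWS1 libraries from cells given 500 nM dTAG7. Both treatments lasted 1 h and ended with 5 min of 500 µM 4sU, so the control cells carry the tag as well. A single edited cell line was studied, and synthesis was not followed to RNA or protein levels here.

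Cells keep BCL2 family proteins in balance. Anti-apoptotic members such as BCL2, BCL-XL (the main product of *BCL2L1*) and MCL1 bind and restrain the effectors BAX and BAK, which form pores in the outer mitochondrial membrane and release cytochrome c. BH3-only proteins such as BIM (*BCL2L11*), BAD and NOXA (*PMAIP1*) engage the anti-apoptotic members or the effectors. BCL-XL is a known survival factor of erythroid cells and of BCR-ABL1-positive leukemia cells, to which K562 belongs.

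The deposited means were split into the whole read pairs behind them, here called reads. They came from 1 control column (weighted in the means like 2 equal columns, and counted once here) and 2 different dIWS1 columns without replicate numbers. Reads were found for 10134 genes, in all 29588862 for the control, 20512882 for dIWS1 column 1 and 20727515 for column 2. The size factors from spike-in RNAs were 1.01, 0.993 and 0.919. Normalised counts are reads divided by these factors. The median log2 ratio (dIWS1/control) of the 8898 genes with a mean of at least 100 normalised counts was −0.41 (quartiles −0.58 and −0.26). It was −0.47 in column 1 and −0.36 in column 2 alone. The transcript of *IWS1* itself had 3684 reads in the control and 2334 and 2427 in the dIWS1 columns, which does not measure loss of the protein. All 12 of the K562 marker genes looked up were listed, among them *GATA1* and *TFRC*, and of 12 markers of other blood cells only *CD3D* and *LYZ* were.

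The members differed widely in their level of synthesis. Per kb of RefSeq gene span, *BCL2L1* had 245.5 normalised counts in the control (95% counting interval 241.5 to 249.5), followed by *BCL2L11* with 202.4 (198.4 to 206.4) and *PMAIP1* with 158 (146 to 170). These 3 genes lay above 96.5%, 95.2% and 92.2% of the genes with a mean of at least 100. The effectors were synthesised at lower levels, *BAK1* at 31.9 (28.1 to 36.2) and *BAX* at 21.5 (18.2 to 25.2). *BCL2* had 12.01 (11.5 to 12.5) and *BAD* 5.86 (4.70 to 7.22). Neighbours in this order were separated by more than counting error in the control column, which has no replicate here. The order of the first 2 genes changed after depletion. *BCL2L11* had 178 and 211 normalised counts per kb in the dIWS1 columns, and *BCL2L1* had 146 and 155. The other 5 genes kept their order in both dIWS1 columns.

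**Figure D1:**
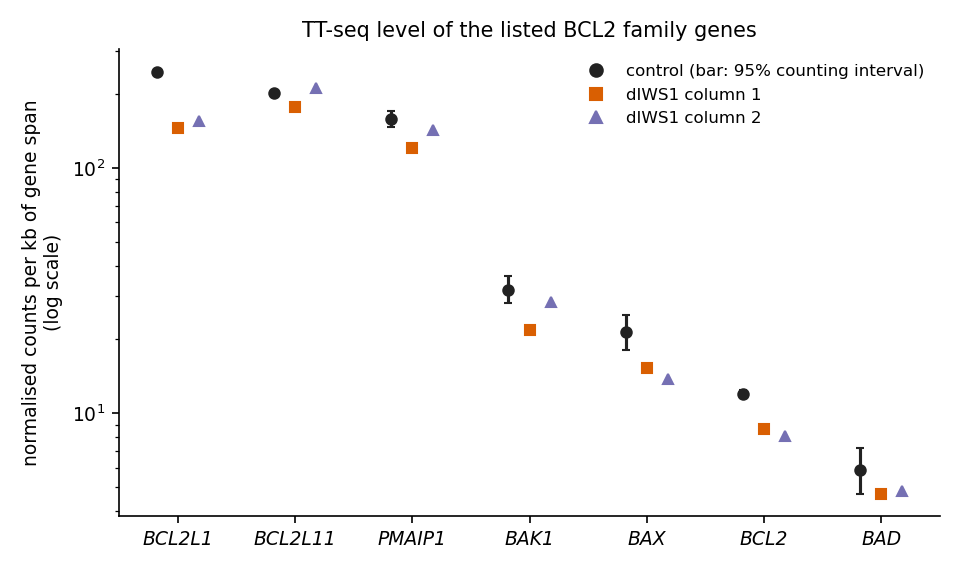
Normalised TT-seq counts per kb of gene span (log scale) of the 7 listed BCL2 family genes in the control column (circles, with 95% counting intervals), dIWS1 column 1 (squares) and dIWS1 column 2 (triangles). *BCL2L1*, *BCL2L11* and *PMAIP1* lie above 100 in every column, and *BCL2L11* is the gene with a dIWS1 column above the control.

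*BCL2L1*, the gene for BCL-XL, had the lowest log2 ratio of the 7 members, and its fall was larger than the spread between the dIWS1 columns. The gene occupies 31664452 to 31723963 of chromosome 20, minus strand (GRCh38.p14, 59512 bp), and its canonical GENCODE 44 transcript has 3 exons with an intron of 55568 bp. There were 14749 control reads, 8620 in dIWS1 column 1 and 8482 in column 2. After scaling these were 14609, 8679 and 9225 normalised counts, so both dIWS1 values lay far below the control and close together. Synthesis was 59.4% of control in column 1 and 63.2% in column 2, a dIWS1 mean of 8952 ± 386 (SD, n = 2). The log2 ratio was −0.71 (SE 0.14, 95% interval −0.99 to −0.42, adjusted p = 9.5e-06, limma voom with Benjamini-Hochberg adjustment over all 10134 genes). The mean of *BCL2L1* can be split into whole reads in 2 ways. The other way gives 4247, 4091 and 31803 reads and puts the dIWS1 columns 8.4-fold apart, and it was not used because 4409 of 4413 uniquely split genes with means of 1000 to 10000 had these columns within 1.5-fold and all columns within 4-fold.

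*BCL2*, the founding anti-apoptotic gene of the family, also fell. It spans 196745 bp on the minus strand of chromosome 18 (63123346 to 63320090), nearly all of it in 1 intron of 189322 bp between its 3 exons. Its reads were 2386 in the control, 1689 in dIWS1 column 1 and 1458 in column 2. These gave 2363, 1701 and 1586 normalised counts, with both dIWS1 columns below the control. The log2 ratio was −0.53 (SE 0.15, adjusted p = 0.00096, limma voom), with −0.47 and −0.58 in the single columns.

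Both effector genes were called lower, at much smaller depth. *BAX*, a pore former that moves from the cytosol to mitochondria, lies on the plus strand of chromosome 19 (48954875 to 48961798, 6 exons). It had 150 reads in the control, 105 in dIWS1 column 1 and 88 in column 2, or 149, 106 and 95.7 normalised counts. Its log2 ratio was −0.56 (SE 0.18, adjusted p = 0.0051, limma voom). *BAK1*, the effector that resides on mitochondria, lies on the minus strand of chromosome 6 (33572552 to 33580276, 6 exons). It had 249, 167 and 201 reads, or 247, 168 and 219 normalised counts. Column 2 lay nearer to the control than to column 1, at 88.6% of control against 68.2%. The log2 ratio of *BAK1* was −0.37 (SE 0.15, adjusted p = 0.026, limma voom), a call that was lost with limma-trend, the less sensitive method in simulated data (adjusted p = 0.079 with a pseudocount of 0.5 and 0.060 with 5).

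None of the 3 listed BH3-only members was called lower or higher by limma voom or limma-trend. Of all tested genes, limma voom called 64.5% lower and 0.109% higher. With 3 genes this count is a description and not a result about the group. Limma-trend called 3 members lower in these data (*BCL2L1*, *BCL2* and *BAX*), but none of the changed genes in simulated data. Its lack of calls adds little if the simulated rates hold here. With voom 1 of the BH3-only members, *PMAIP1*, had an unadjusted p under 0.05. *BMF*, a BH3-only gene outside the members and named after its values were seen, was called lower (−0.33, adjusted p = 0.021, limma voom). *BCL2L11*, the gene for the BH3-only activator BIM, lies on the plus strand of chromosome 2 (111120914 to 111168445, 47532 bp, 4 exons). It had 9712 reads in the control, 8388 in dIWS1 column 1 and 9230 in column 2. Normalised counts were 9620, 8445 and 10039, so the control lay between the dIWS1 columns. Its log2 ratio was −0.06 (SE 0.15, 95% interval −0.35 to 0.22, adjusted p = 0.70, limma voom). The counting error of a single-column log2 ratio of this gene is 0.021, so depth does not set this interval.

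*PMAIP1*, the gene for NOXA, which binds MCL1, lies on the plus strand of chromosome 18 (59899996 to 59904305, 2 exons). Its reads were 686, 514 and 564, or 679, 518 and 613 normalised counts in the control and dIWS1 columns 1 and 2. Both dIWS1 values lay below the control, but the log2 ratio of −0.27 (SE 0.13, 95% interval −0.52 to −0.02) had an adjusted p of 0.054 with limma voom. *BAD*, whose product binds BCL2 and BCL-XL when it is not phosphorylated, lies on the minus strand of chromosome 11 (64269828 to 64284704, 4 exons). It had 88, 69 and 66 reads, or 87.2, 69.5 and 71.8 normalised counts. At this depth the counting error of its log2 ratio was 0.23 and 0.24 in the single columns. The fitted log2 ratio was −0.30 (SE 0.22, 95% interval −0.73 to 0.13, adjusted p = 0.20, limma voom).

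In all, 4 of the 7 listed members were called lower, where 64.5% of all tested genes were. None was called higher, where 0.109% of all genes were. No member was higher at an unadjusted p under 0.05 with voom either. Limma-trend called no member higher. It called 0 of 100 genes raised 1.5-fold in simulated data, so this adds little if those rates hold here. In 6 of the 7 both dIWS1 columns lay below the control, where 96.4% of all genes had a fitted log2 ratio below 0. The median log2 ratio of the members was −0.37, beside −0.43 for all 10134 genes. These directions rest on the spike-in scaling. With scaling by total reads, which placed the median gene at 0.03 and called 11.1% of all genes lower and 15.1% higher, *BCL2L1* was called lower (−0.27, adjusted p = 0.0097, limma voom) and *BCL2L11* higher (0.38, adjusted p = 0.0067), *BCL2* and *BAX* were negative without a call, and *BAK1*, *BAD* and *PMAIP1* turned positive without one. The anti-apoptotic and effector genes provided the 4 calls, 2 of 2 listed in each group. With 1 control column, the fit had 1 residual degree of freedom per gene and used a spread shared over genes, with no spread between control libraries in it.

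**Figure D2:**
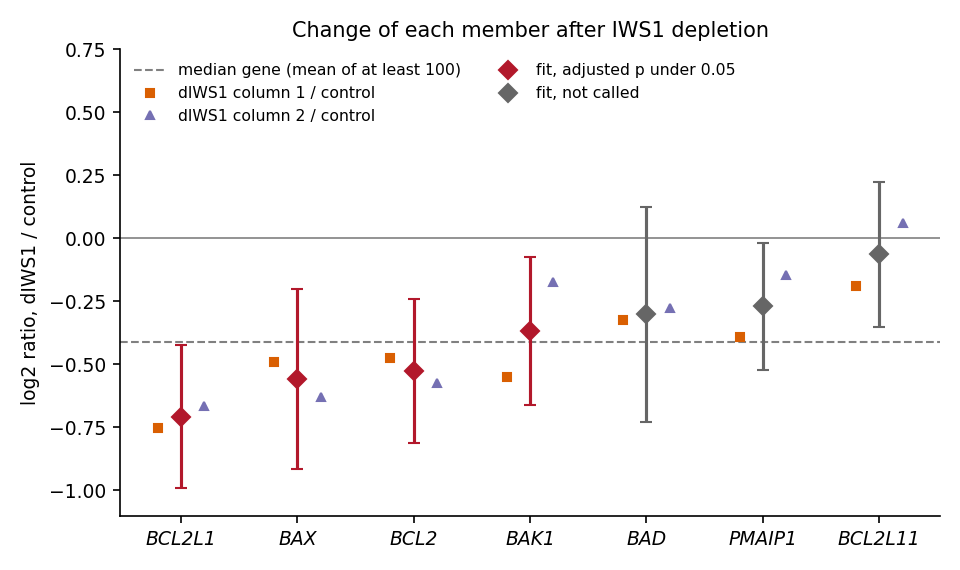
Log2 ratio of RNA synthesis (dIWS1/control) of each listed BCL2 family gene with spike-in scaling. Diamonds with bars are the limma voom estimate with its 95% interval (red where the adjusted p is under 0.05), small symbols are the single dIWS1 columns, and the dashed line is the median gene at −0.41; *BCL2L1* and *BCL2L11* stand at the ends, at −0.71 and −0.06.

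Since 96.4% of all genes lay below 0, the position of each member within the table was compared next. *BCL2L1* had 11.5% of the genes with a mean of at least 100 below it, and *BCL2L11* had 94.8%. *BAX* and *BCL2* stood at 27.6% and 32.6%, and *BAK1*, *BAD* and *PMAIP1* at 57.7%, 68.4% and 73.7%. Relative to the median gene, the log2 ratio of *BCL2L1* was −0.29 (95% interval −0.58 to −0.01, adjusted p = 0.21) and that of *BCL2L11* was 0.35 (0.06 to 0.64, adjusted p = 0.13), both by limma voom. The values of the other 5 members ran from −0.15 (*BAX*) to 0.14 (*PMAIP1*). No member was called relative to the median gene in this fit, in which 5.2% of all genes were called lower and 2.68% higher. *BCL2L1* and *BCL2L11* were the 2 members with an unadjusted p under 0.05. When each column was placed on its own median gene, a setting added after the values were seen, *BCL2L1* was called lower (−0.29, adjusted p = 0.045) and *BCL2L11* was not called (0.35, adjusted p = 0.055). In that setting 5.5% of all genes were called lower and 3.43% higher.

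**Figure D3:**
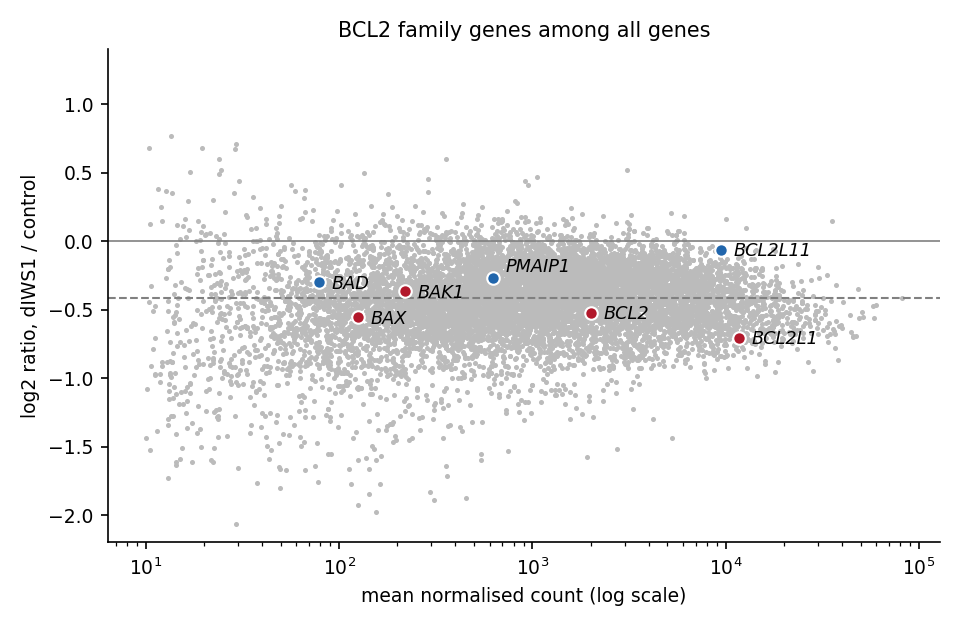
Log2 ratio (dIWS1/control) against the mean normalised count (log scale) for the 9915 genes with a mean of at least 10, of which 8 lie outside the axis range. Listed BCL2 family genes are red where called lower and blue where not, the dashed line is the median gene, and *BCL2L1* and *BCL2L11* have similar depth but lie on opposite sides of it.

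The ratio of 2 genes within a column does not depend on the scaling between libraries. Per kb, *BCL2L1* had 1.21 times the reads of *BCL2L11* in the control (95% counting interval 1.18 to 1.25). This ratio was 0.821 (0.796 to 0.846) in dIWS1 column 1 and 0.734 (0.713 to 0.756) in column 2. Both dIWS1 columns thus had a lower ratio of BCL-XL to BIM gene synthesis than the control, with log2 differences of −0.56 and −0.72. These genes have the lowest and highest log2 ratio of the members, so a fall of their ratio restates those values and is no separate evidence. The pairs of genes compared here were not among the planned results. The ratio of *BCL2* to *BCL2L11* was 0.0594 in the control, 0.0487 in column 1 and 0.0382 in column 2, also lower in both. For *BCL2L1* over *BCL2* it was 20.4 in the control and 16.9 and 19.2 in the dIWS1 columns, and the counting intervals of the control and column 2 overlapped. The ratio of the effectors, *BAX* over *BAK1*, was 0.672 in the control (0.545 to 0.826), 0.702 (0.544 to 0.901) in column 1 and 0.489 (0.376 to 0.631) in column 2, so no direction was shared by the columns. With 1 control column these ratios carry no test, and the intervals cover counting error only.

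The genes nearest to *BCL2L1* in the plane of both single-column log2 ratios, out of 8897 with a mean of at least 100, were *RAPGEF1*, *FOXN3* and *ITPR2*, at distances of 0.0014, 0.0023 and 0.0046. The nearest to *BCL2L11* were *C5orf30*, *ZNF326* and *EIF2AK3*, at 0.0039, 0.0049 and 0.017. Both columns share the same control, so closeness here is over 2 ratios with a common denominator.

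Gene length varied among the members from 4.31 kb (*PMAIP1*) to 197 kb (*BCL2*), and the table as a whole differed by length class. Genes of under 10 kb had a median log2 ratio of −0.46, those of 10 to 30 kb −0.38, those of 30 to 100 kb −0.35 and those over 100 kb −0.55. *BCL2*, at −0.53, lay beside the median of its class, with 54.9% of the class below it. *BCL2L1* and *BCL2L11* fall in the same class, with 10.4% and 93.6% of the class below them. Of the short members, *BAX* had 31.6%, *BAK1* 67.1% and *PMAIP1* 80.5% of the class below. *BAD* had 62.9%.

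**Figure D4:**
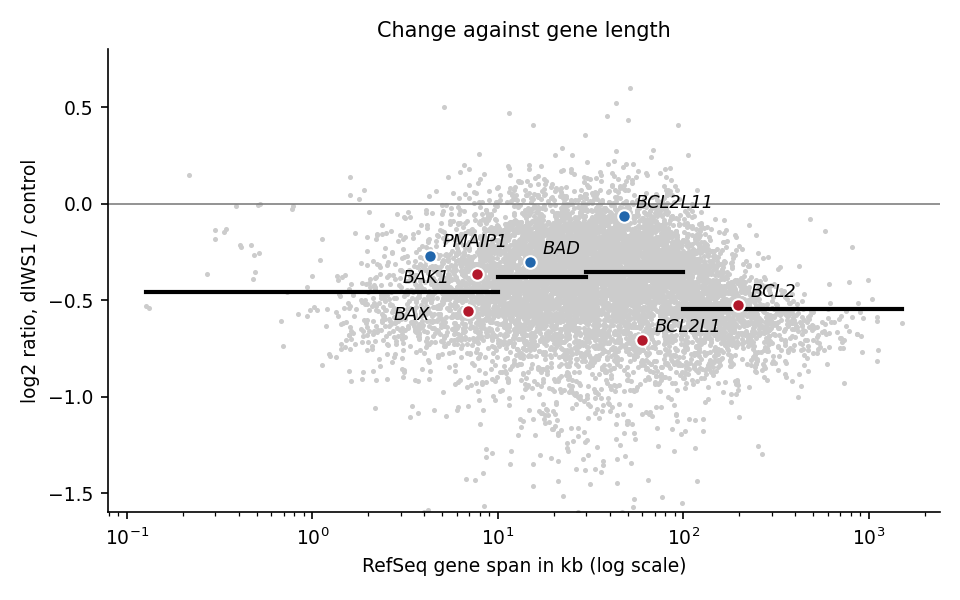
Log2 ratio (dIWS1/control) against RefSeq gene span in kb (log scale) for the 8866 genes with a length and a mean of at least 100, of which 14 lie outside the axis range. Black lines are the medians of 4 length classes (−0.46, −0.38, −0.35 and −0.55), and BCL2 family genes are red where called lower and blue where not.

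The sequence in front of the start sites is shown for the members with the lowest and highest log2 ratio, for the *BAX* gene among those called and for *PMAIP1* among those not called. The 150 bases that end just before the RefSeq start are given on the gene's strand (RefSeq, GRCh38.p14), and capitals mark matches to the motifs searched on both strands (a palindrome was counted once). The motifs were the GC box with the letters GGGCGG, the E-box spelled CACGTG, the CCAAT box, the TATA box written as TATAAA, the cAMP response element in its form TGACGTCA, an ETS site read as CCGGAAG and a STAT site given by TTCNNNGAA, none of which overlap each other in the stretches shown. The stretches are chr20:31723964-31724113 on the minus strand, chr19:48954725-48954874 on the plus strand, chr2:111120764-111120913 on the plus strand and chr18:59899846-59899995 on the plus strand.
BCL2L1: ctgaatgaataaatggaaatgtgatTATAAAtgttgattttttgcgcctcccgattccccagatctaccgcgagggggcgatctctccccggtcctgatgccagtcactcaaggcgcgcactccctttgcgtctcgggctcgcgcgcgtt
BAX: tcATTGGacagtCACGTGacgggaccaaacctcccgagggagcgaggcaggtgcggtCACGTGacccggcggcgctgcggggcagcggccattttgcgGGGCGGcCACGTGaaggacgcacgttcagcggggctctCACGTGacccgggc
BCL2L11: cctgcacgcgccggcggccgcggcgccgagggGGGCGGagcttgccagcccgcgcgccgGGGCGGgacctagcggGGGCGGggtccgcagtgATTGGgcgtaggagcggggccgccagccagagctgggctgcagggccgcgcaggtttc
PMAIP1: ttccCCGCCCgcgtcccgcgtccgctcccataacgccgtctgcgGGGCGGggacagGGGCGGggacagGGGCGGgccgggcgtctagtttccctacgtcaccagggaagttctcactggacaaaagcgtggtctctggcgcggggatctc
The *BCL2L11* stretch has 80.7% G and C, and those of *BAX* and *PMAIP1* have 70.0% each, against 54.7% for *BCL2L1*. Those of *BAK1* and *BAD*, not shown, have 67.3% and 68.0%. The *BCL2L1* stretch lies before the RefSeq start and not at the start of its canonical transcript. Over the 250 bases before the start, *BCL2L11* had 3 matches to the GC box, *PMAIP1* 4, *BAK1* 2, and *BAX* and *BAD* 1 each, a motif present in 42.6% of the 35116 start site windows of the genome. *BCL2* and both *BCL2L1* windows had none, so called and uncalled members both included genes with few matches. The *BCL2* window (63319770 to 63320019) lay before its canonical transcript and inside the RefSeq gene span, which ends at 63320090. *BAX* had 4 E-boxes, and 0.0142% of windows hold as many (6.34% hold any). The 250 bases of *BCL2L1* that end with the stretch shown had 2 matches to TATAAA, not both within the 150 bases shown. Of all windows 10.7% hold this motif, and the *BCL2L1* window at the start of its canonical transcript, further downstream, had 0. A match is a description of letters, and binding was not measured here.

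Other genes of the apoptosis pathway were described by lists. Of 16 further genes of the BCL2 family and its binding partners 8 were listed, 5 of them called lower, with a median log2 ratio of −0.35. The lowest were *BCL2L13*, a mitochondrial receptor for mitophagy (−0.74, adjusted p = 5.2e-06), and *BOK*, a BAX-like effector (−0.71, adjusted p = 0.00074), both by limma voom. Among those with a mean of at least 100, *BNIP1* (−0.26, adjusted p = 0.063) and the mitophagy receptor gene *BNIP3L* (−0.03, adjusted p = 0.82) were highest and were not called. Relative to the median gene *BNIP3L* was called higher (0.38, adjusted p = 0.042).

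Downstream of the mitochondria, 8 of 16 listed genes of the apoptosome, caspases and their inhibitors were called lower (median −0.35). *BIRC2*, which encodes the inhibitor cIAP1, and *DFFB*, the gene for a DNA-cutting nuclease, were the lowest of the deeper genes at −0.58 and −0.57. *CASP6* stood at −0.14 without a call. The mitochondrial nuclease gene *ENDOG*, named after its values were seen because it was the only gene of this list called lower relative to the median gene, had 135, 70 and 53 reads and a log2 ratio of −1.06 (adjusted p = 2.0e-06, limma voom).

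The call counts of these lists and those that follow are to be read beside the 64.5% of all genes called lower. In the death receptor pathway 7 of 9 listed genes were called lower (median −0.49). The adaptor genes *FADD* (−0.71) and *TRADD* (−0.57) were lowest, and the receptor gene *TNFRSF10B* (−0.11, adjusted p = 0.52) and *CASP10* (−0.18, adjusted p = 0.22) were highest. Of the outer mitochondrial membrane partners 6 of 8 were called lower (median −0.42), with *MTX1* at −0.64 and *TOMM40*, the import channel, at −0.55. *VDAC2*, a channel that binds BAK, was at −0.19 (adjusted p = 0.24) and *MTX2* at −0.31 (adjusted p = 0.056). Genes for the turnover of BCL2 family proteins were called lower in 6 of 7 cases (median −0.48). Among them *UBE2J2*, a ubiquitin-conjugating enzyme of the endoplasmic reticulum, was lowest at −0.91 (adjusted p = 2.7e-09, limma voom), and it was called lower relative to the median gene as well (−0.50, adjusted p = 0.0095). *BTRC* was at −0.67, *CDC20* at −0.45 and *MARCH5* at −0.30, the last without a call.

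Of 9 listed genes for transcription factors of BH3-only genes or a regulator of these factors, 4 were called lower and the median was −0.30. *TP73* (−0.64) and *E2F1* (−0.61) were lowest. *FOXO1*, of a family of factors known to activate *BCL2L11*, was at −0.07 (adjusted p = 0.67), with 4265 reads in the control and 3842 and 3850 in the dIWS1 columns. *MYC* was at −0.05 (adjusted p = 0.74), with 2904, 2667 and 2626 reads. No listed gene of any of these lists was called higher by limma voom, which called 0.109% of all genes higher. At an unadjusted p under 0.05 with voom 0 were higher. With limma-trend, which called 0 of 100 genes raised 1.5-fold in simulated data, 0 were called higher. The K562 markers gave 7 lower calls of 12 and a median of −0.43, with *HBZ* (−0.91) and *KLF1* (−0.78) lowest. *HBG1* (0.14) and *HBG2* (0.04) were highest, and *HBG1* was called higher relative to the median gene (0.55, adjusted p = 0.021, limma voom). The study kept only reads with a single alignment, so reads that align to both genes of this near-identical pair were not counted. Of the other blood cell markers, *CD3D* was called lower at −0.70 and *LYZ* was not called.

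**Figure D5:**
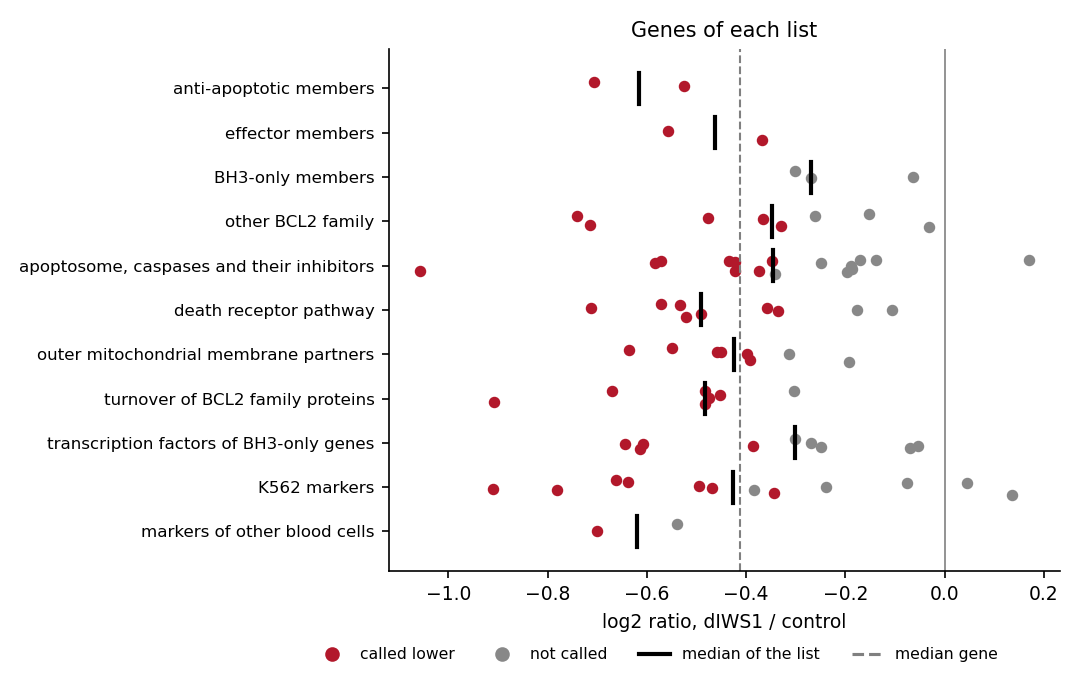
Log2 ratio (dIWS1/control) of every listed gene of the BCL2 family groups, the pathway lists and the marker lists. Each point is a gene (red where called lower, grey where not called), black bars are list medians and the dashed line is the median gene. The list medians of the members run from −0.62 for the anti-apoptotic members to −0.27 for the BH3-only members. The BH3-only gene *BMF* is in the list of other family genes.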

How the data were processed

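TT-seq was measured in 4 libraries, 2 control and 2 dIWS1. The authors aligned read pairs with STAR 2.6.0 to GRCh38 with added spike-in sequences, counted them per RefSeq gene with strand, removed overlapping genes, kept genes over a median RPK of 10 and ran DESeq2 with spike-in size factors. The deposited table holds 1 signal column, the mean over 4 columns of counts divided by size factors. It also holds the authors' own comparison (log2 fold change, standard error, Wald statistic, p-value and adjusted p-value). These values are neither printed nor tested here, and the deposited log2 fold change, read as dIWS1 over control as in the study's legends, served only to decide on which side each recovered column stands. There were 0 unused columns of per-sample values.

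A mean is a sum of whole reads times 3 steps (0.495, 0.252 and 0.272 normalised counts per read), and the reads were solved from the means alone. Of 10136 genes with a mean above 0, 9625 had 1 solution and 509 had 1 within the fold limits (all columns within 4-fold, dIWS1 columns within 1.5-fold), together 99.98%. Tested on simulated data with means up to 5000, the method recovered 2719 of 2719 genes. Larger means, such as those of *BCL2L1* and *BCL2L11*, were not simulated. Of 100 means shifted at random per class, 2 still had exactly 1 split at 5000 to 10000, where a single split was kept without the fold limits. Exactly 1 split within the fold limits remained for 0 at 5000 to 10000, 5 at 10000 to 20000 and 18 above 20000.

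Limma 3.58.1 (voom, R 4.3.3) compared 1 control with 2 dIWS1 columns, with library sizes proportional to the size factors and Benjamini-Hochberg adjustment over 10134 genes. A gene was called at an adjusted p under 0.05. In counts simulated for these 10134 genes and this comparison, voom called 92 of 100 genes changed 0.5-fold, 27 of 100 changed 1.5-fold and 0 of 9934 unchanged, and limma-trend called 0 of 100, 0 of 100 and 0 of 9934. These simulated counts had a dispersion set in advance and equal for all genes. They held no shift between the dIWS1 columns and left nearly all genes unchanged. These rates may therefore not carry over to the real fit, in which most genes were called lower. The p-values rest on the spread between the dIWS1 columns, pooled over all genes, and hold no spread between control libraries. That spread includes a shift of column 1 against column 2 (median −0.12 over genes with a mean of at least 100). With each column on its own median gene, the SE of *BCL2L1* was 0.047, against 0.145 in the main fit. Single-column log2 ratios used a pseudocount of 0.5 reads, and intervals from reads cover counting error only. Spans came from RefSeq GRCh38.p14, with 9353 genes matched on the symbol, 576 on a synonym and 169 on the gene number, and exons from GENCODE 44. Promoters were found for all 7 listed members. Python was 3.11.15.

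All listed members are named. From each list the 2 lowest and 2 highest log2 ratios among genes with a mean of at least 100 are named, with any higher call, and for the members with the lowest and highest log2 ratio the 3 nearest genes. One gene that this rule names is not reported here. The members and lists were chosen with earlier results of these data known. The alternatives were total-read scaling, limma-trend, minimum means, other thresholds, single dIWS1 columns, the control entered 2 times and other medians.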

Additional observations from a re-analysis of the deposited data

How the results depend on the processing

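Scaling by total reads in genes moved the median gene by 0.44 on the log2 scale, to 0.03, and reduced the members called lower from 4 to 1 (*BCL2L1*). *BCL2* went to −0.084 (adjusted p = 0.53) and *BAX* to −0.12 (adjusted p = 0.67). The log2 ratios of *BAK1* (0.080), *BAD* (0.14), *PMAIP1* (0.17) and *BCL2L11* (0.38, adjusted p = 0.0067) turned positive, and these p-values are from limma voom. The sign of a change for these 4 genes therefore depends on the spike-in scaling. With limma-trend *BAK1* was at −0.36 with a pseudocount of 0.5 (adjusted p = 0.079) and −0.35 with 5 (adjusted p = 0.060).

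Relative to the median gene, placing each column on its own median gave 1 call in place of 0, *BCL2L1* at −0.29. With a single dIWS1 column, *BCL2* ran from −0.22 to −0.0064 and *BAX* from −0.27 to −0.021 in these terms. With the control entered 2 times the count stayed at 4, with *BAD* called (adjusted p = 0.010) in place of *BAK1* (0.076, limma voom). In single columns without a test, *BCL2L11* ran from −0.19 to 0.06, and *BAK1* relative to the median gene from −0.08 to 0.19. The other alternatives that were run kept the direction and side of the threshold of each member, or gave a count within 1.5 times, and *BAD* has no value at a minimum mean of 100. No paired analysis was possible because the recovered columns carry no replicate number and the control is 1 column. Depth limits *BAD*, with 66 to 88 reads, and *BAX*, with 88 to 150.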
